A study of Rattus norvegicus with 6 samples.

Results

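The genes described here are 36 genes of DNA replication and nucleotide supply, chosen by name for their roles at the origin of replication, at the replication fork and in the making of DNA precursors. They were 36 of 14506 genes measured on Affymetrix expression arrays in cells that had been isolated from rat testes, cultured and labelled as Sertoli cells. The cultures came from 21-day-old rats, which the labels place in puberty after the phase of Sertoli cell proliferation, and from 9-day-old rats, which the labels place within that phase. Each age had 3 arrays numbered 1 to 3, 6 in all, and no strain, genotype or treatment other than culture was given. Cells of both ages were grown in DMEM/F12 medium with 10% fetal bovine serum and had a change of medium that the labels describe as a further purification. Whether the replicates of an age were separate animals or cultures is not stated, so the spread behind the p-values may be technical. The study set out to find genes of cell division and cell death that differ with age.

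Sertoli cells nurse the germ cells of the seminiferous tubule, divide in the young testis and then leave the cell cycle. To copy its DNA a dividing cell loads the MCM helicase onto origins in G1 with the help of the origin recognition complex, Cdc6 and Cdt1. In S phase the helicase is switched on by the Cdc7 kinase, Mcm10, Cdc45 and the GINS complex. Polymerases alpha, delta and epsilon, a sliding clamp with its loader and the single-strand binding protein RPA then copy the strands, while ribonucleotide reductase, thymidylate synthase and their partners supply the deoxynucleotides. Transcription of many of these genes is known to be driven by E2F factors at the passage from G1 to S.

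Signals were RMA values on the log2 scale, which have no true zero, so levels of different genes were not compared as amounts of transcript. Array medians were 3.78 to 3.87, and 35 of the 36 members were among the 7253 genes of highest mean signal. Both arrays numbered 3 stood apart from the other arrays, at 32.5 (21 days) and 18.8 (9 days) on the first principal component against -21.2 to -8.91 for the other 4. Both the age of the rats and the replicate number parted the arrays. Sertoli cell markers averaged 5.21 to 6.20 in 21-day-old cultures and 4.85 to 5.05 in 9-day-old cultures, and 12 of 15 were higher at 21 days. Their median difference was 0.22, while the mean rested most on Tf (3.59), Testin (2.28), Shbg (1.16) and Inha (1.03). The 3 lower markers were Gata4 (-0.19), Gja1 (-0.14) and Inhbb (-0.018). Wt1, a defining Sertoli cell transcription factor, had signals of 6.95 to 7.44 at 21 days and 6.94 to 7.04 at 9 days. By contrast Amh, Fshr, Gata1, Dhh and Cldn11 lay below the array medians in every array, and Shbg and Testin did so in every 9-day-old array.

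All 36 replication genes had a lower mean signal in cultures from 21-day-old rats than in those from 9-day-old rats, and none of the differences passed the test. Of all 14506 genes 53.5% were lower at 21 days, and of the 7253 genes of highest mean signal 63.2%. The mean over the 36 genes was 6.47, 6.52 and 6.27 in 21-day-old replicates 1, 2 and 3, against 6.53, 6.79 and 6.62 in 9-day-old replicates 1, 2 and 3. The 3 means at 21 days lay below the 3 at 9 days, with 6.42 ± 0.13 at 21 days and 6.65 ± 0.13 at 9 days (SD, n = 3 each), a difference of -0.23 or a ratio of 0.855. The median difference of the members was -0.23 on the log2 scale, against -0.0093 for all genes and -0.042 for the genes of higher signal. Single differences ran from -0.48 to -0.076, so that the largest was a level at 21 days of 0.719 of that at 9 days and no member reached 2-fold, as 0.427% of all genes did. By size of the difference 24 of the 36 members were among the lowest 10% of all genes.

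In limma 0 of the 36 members passed an adjusted p under 0.05, as did 0 of all genes (0%), with an adjusted p of 1 for each member. At an unadjusted p under 0.05 there were 5 members, all lower at 21 days: Prim1, Uhrf1, Lig1, Tyms and Rrm1. The background for this count was 1.52% of all genes. The count was 2 without 21-day-old replicate 3, 3 without 9-day-old replicate 2 or 3, and 3 without both arrays numbered 3 or with the arrays centred on their medians. It was 4 without 21-day-old replicate 2, 6 without 9-day-old replicate 1 and 7 without 21-day-old replicate 1. Over all genes, in either direction, the count was 431 in the main fit and 304 to 628 with single arrays left out. With the replicate number as a block the count was 14 members, against 4.45% of all genes, and again 0 passed the adjustment, with a lowest adjusted p of 0.39 in limma for Prim1. The 7253 genes of highest mean signal, fitted alone with the block, gave 732 genes in either direction, 13 of them members. Without the block they gave 189, with 3 members. For 5 members, Prim1, Uhrf1, Pola1, Rrm1 and Prim2, all 3 values at 21 days lay below the 3 at 9 days, against 2.98% of all genes and 3.81% of the genes of higher signal that were lower without overlap. These counts describe a list chosen with earlier results of these data known.

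**Figure D1:**
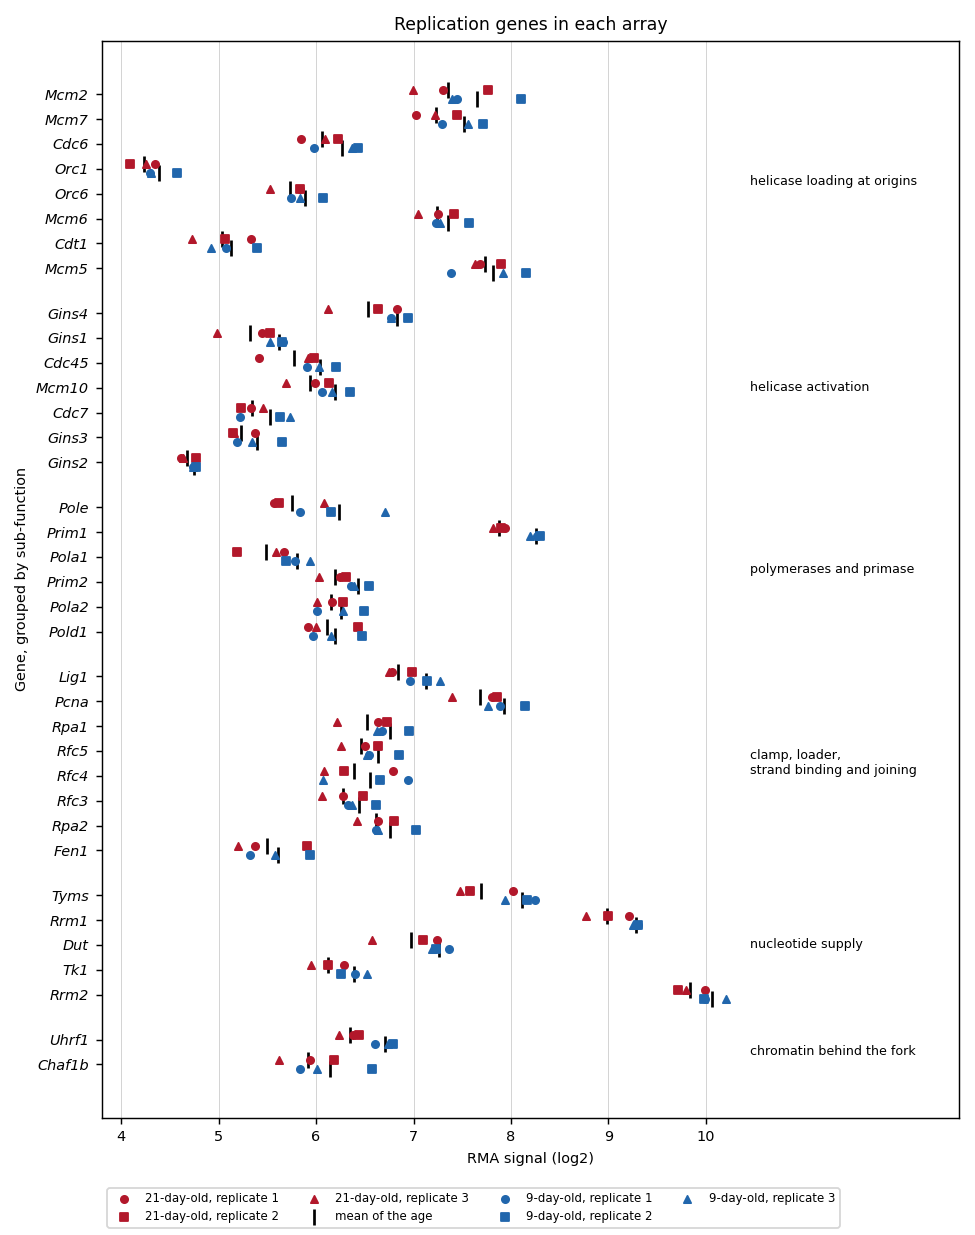
RMA signal (log2, x axis) of the 36 replication genes (y axis, grouped by sub-function) in each of the 6 arrays, with red for 21-day-old and blue for 9-day-old cultures, a marker shape for each replicate number and a black bar for the mean of each age. The red mean lies left of the blue mean in every gene, while the points of the ages overlap for all but Prim1, Uhrf1, Pola1, Rrm1 and Prim2.

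The difference between the ages was small in the pair of arrays numbered 1 and larger in the others. The mean over the members differed by -0.063 in pair 1, -0.27 in pair 2 and -0.35 in pair 3. In pair 1 the signal was lower at 21 days for 23 of the 36 members, in pair 2 for all 36 and in pair 3 for 35, with Rfc4 as the exception at 0.0081. Of all genes 45%, 49.5% and 51.2% were lower at 21 days in pairs 1, 2 and 3, and of the genes of higher signal 42.9%, 63.9% and 60.8%. There were 22 members lower at 21 days in all 3 pairs, against 14.4% of all genes and 20.5% of the genes of higher signal. The other 14 were lower in 2 pairs, and 13 of these were higher at 21 days in pair 1. Without 9-day-old replicate 2 the difference of the mean over the members was -0.16 and 31 members were lower, and without 21-day-old replicate 3 these were -0.15 and 34. With both arrays numbered 3 left out 34 members were lower and the mean difference was -0.17.

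**Figure D2:**
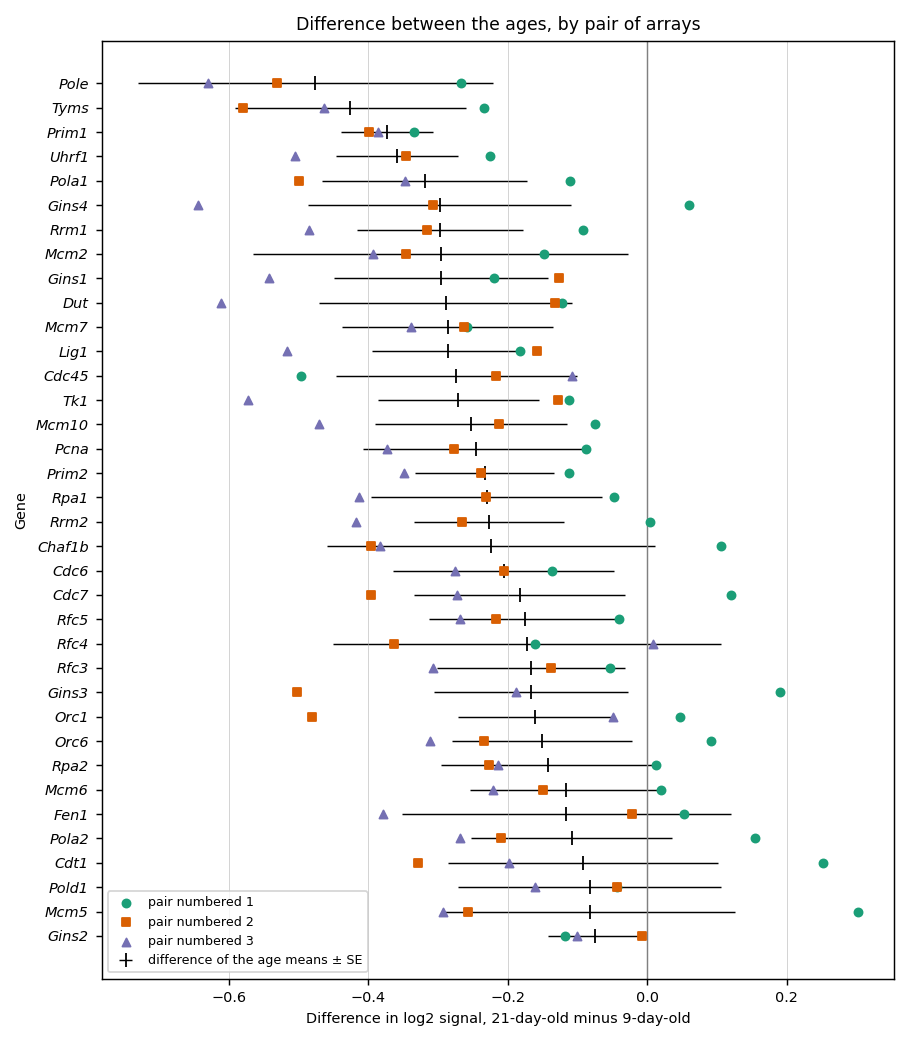
Difference in log2 signal, 21-day-old minus 9-day-old (x axis), for each replication gene (y axis, ordered by the difference). Coloured points are the 3 same-number pairs, and the black bars are the difference of the age means with its SE from limma. Pairs 2 and 3 lie left of 0 for nearly all genes (36 and 35), pair 1 for 23.

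The genes that synthesise new strands held the largest single difference, that of Pole, and the difference most alike in the 3 pairs, that of Prim1. The 6 polymerase and primase genes had a median difference of -0.28, and 5 of them were lower in all 3 pairs. Prim1 (probe set 10892939), the catalytic subunit of the primase that lays down RNA primers, was at 7.94, 7.90 and 7.81 in 21-day-old replicates 1 to 3, against 8.27, 8.29 and 8.20 in 9-day-old replicates 1 to 3. The ages were clearly parted, with a difference of -0.37 ± 0.066 (log2, SE) and -0.33, -0.40 and -0.39 in the 3 pairs. Its partner Prim2, the regulatory subunit of primase, was at 6.24, 6.31 and 6.04 at 21 days, against 6.36, 6.55 and 6.38 at 9 days. All 3 values at 21 days were below those at 9 days, by a narrow margin, and the difference was -0.23 ± 0.10.

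Pola1, the catalytic subunit of polymerase alpha, which extends the primers, was at 5.67, 5.19 and 5.59 at 21 days, against 5.78, 5.69 and 5.94 at 9 days. The ages did not overlap, the lowest value was that of 21-day-old replicate 2, and the difference of -0.32 ± 0.15 was -0.17 without that array. Pole (probe set 10763021), the catalytic subunit of the leading-strand polymerase epsilon, was at 5.57, 5.62 and 6.08 at 21 days, against 5.84, 6.15 and 6.71 at 9 days. Its values were highest in the arrays numbered 3 at both ages, so that the ages overlapped although each pair was lower at 21 days, by -0.27, -0.53 and -0.63. The difference of Pole, -0.48 ± 0.25, was the largest among the members and was -0.24 without 9-day-old replicate 3. Pola2, the second subunit of polymerase alpha, and Pold1, the catalytic subunit of the lagging-strand polymerase delta, differed by only -0.11 ± 0.14 and -0.083 ± 0.19, and both were higher at 21 days once 9-day-old replicate 2 was left out (0.0087 and 0.055).

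Genes of nucleotide supply were lower in all 5 cases, with a median difference of -0.29 (-0.19 without 21-day-old replicate 3). Tyms (probe set 10930510), thymidylate synthase, which makes the thymidine nucleotide, was at 8.02, 7.58 and 7.48 at 21 days, against 8.25, 8.16 and 7.94 at 9 days. One array, 21-day-old replicate 1, reached into the range of the younger cultures, and the difference was -0.43 ± 0.17 (log2, SE). Rrm1 (probe set 10940441), the large subunit of ribonucleotide reductase, was at 9.21, 8.99 and 8.77 at 21 days, against 9.30, 9.31 and 9.25 at 9 days. The 3 values at 9 days lay close together and above all of those at 21 days, with a difference of -0.30 ± 0.12. Leaving out 21-day-old replicate 3 gave -0.19. Rrm2, the small subunit of the same enzyme, was at 9.99, 9.71 and 9.79 at 21 days, against 9.99, 9.98 and 10.21 at 9 days. It was level in pair 1 (0.0037) and lower in the other pairs, with a difference of -0.23 ± 0.11, and its second probe set, at a like signal, differed by -0.25.

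Tk1, the thymidine kinase of the salvage pathway, was at 6.28, 6.13 and 5.95 at 21 days, against 6.40, 6.25 and 6.52 at 9 days. Dut, which removes dUTP from the pool, was at 7.25, 7.09 and 6.58 at 21 days, against 7.37, 7.23 and 7.19 at 9 days. Both were lowest in 21-day-old replicate 3, and without that array the differences of -0.27 ± 0.12 for Tk1 and -0.29 ± 0.18 for Dut were -0.18 and -0.091. All 5 nucleotide supply genes were highest among the 21-day-old arrays in replicate 1, where their mean was 8.15, against 7.90 and 7.71 in replicates 2 and 3. In the 9-day-old arrays the means were nearly equal, at 8.26, 8.18 and 8.22. Without both arrays numbered 3 the median difference of the 5 genes was -0.13.

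Genes that load the helicase at origins had a median difference of -0.16 over 8 genes, which ran from -0.26 without 9-day-old replicate 1 to -0.063 without 9-day-old replicate 2. All 8 were lower in pairs 2 and 3, and in pair 1 only 3 were lower: Mcm2, Mcm7 and Cdc6. Mcm7 (probe set 10760824), a subunit of the MCM helicase, was at 7.03, 7.45 and 7.22 at 21 days, against 7.29, 7.71 and 7.55 at 9 days. The ages overlapped, yet the pairs differed by a like amount, -0.26, -0.26 and -0.34, and the difference was -0.29 ± 0.15 (log2, SE). Mcm2, another subunit, was at 7.30, 7.76 and 6.999 at 21 days, against 7.45, 8.11 and 7.39 at 9 days, a difference of -0.30 ± 0.27. It was highest in number 2 at both ages, and without 9-day-old replicate 2 the difference was -0.068. Cdc6, which helps to load the helicase, differed by -0.21 ± 0.16 and was lower in each pair, by -0.14, -0.21 and -0.28. Without 21-day-old replicate 1 the difference was -0.19 for Mcm7 and -0.10 for Cdc6.

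Other licensing genes went opposite ways between the pairs. Mcm5 was at 7.68, 7.89 and 7.63 at 21 days, against 7.38, 8.15 and 7.92 at 9 days. The 9-day-old arrays spread more widely than the ages differed (-0.082 ± 0.21), and pair 1 was higher at 21 days by 0.30. Cdt1, the loading factor that is destroyed once replication starts, was higher at 21 days by 0.25 in pair 1, and its difference of -0.092 ± 0.19 turned to 0.067 without 21-day-old replicate 3. Mcm6 differed by -0.12 ± 0.14, and the origin recognition subunits Orc1 and Orc6 by -0.16 ± 0.11 and -0.15 ± 0.13, each with pair 1 slightly higher at 21 days. Without 9-day-old replicate 2 the difference was 0.085 for Mcm5, -0.010 for Mcm6 and -0.071 for Orc1, and that of Orc6 was -0.047 without 21-day-old replicate 3. The probe table names no probe set for the helicase subunits Mcm3 and Mcm4, which were not analysed here.

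Genes that switch the helicase on had a median difference of -0.25 (-0.13 without 21-day-old replicate 3), and 4 of 7 were lower in all 3 pairs. Gins1, a subunit of the GINS complex that joins the helicase, was at 5.45, 5.53 and 4.99 at 21 days, against 5.67, 5.66 and 5.53 at 9 days. Values at 21 days were lower apart from a tie of replicate 2 with 9-day-old replicate 3. The difference of -0.30 ± 0.15 (log2, SE) was -0.13 without 21-day-old replicate 3. Gins4, another subunit, was at 6.83, 6.64 and 6.12 at 21 days, against 6.77, 6.94 and 6.77 at 9 days. Here 1 array, again 21-day-old replicate 3, was far below the others, and the difference of -0.30 ± 0.19 was -0.095 without it. Cdc45, which completes the active helicase, ran the other way among the pairs, with -0.50, -0.22 and -0.11 and a difference of -0.27 ± 0.17, which was -0.095 without 21-day-old replicate 1. Mcm10, which starts the unwinding, differed by -0.25 ± 0.14, the kinase gene Cdc7 by -0.18 ± 0.15, Gins3 by -0.17 ± 0.14 and Gins2 by -0.076 ± 0.067. Cdc7 and Gins3 were higher at 21 days in pair 1, by 0.12 and 0.19. The difference of Mcm10 was -0.13 without 21-day-old replicate 3, that of Cdc7 was -0.080 without 9-day-old replicate 3 and that of Gins3 was -0.039 without 9-day-old replicate 2.

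The clamp, its loader, strand binding and strand joining formed a group of 8 genes with a median difference of -0.17, which was -0.066 without 21-day-old replicate 3 and -0.30 without 21-day-old replicate 2. Pcna (probe set 10850131), the sliding clamp that holds polymerases on the DNA, was at 7.80, 7.86 and 7.39 at 21 days, against 7.89, 8.14 and 7.77 at 9 days. It was lower in each pair, by -0.088, -0.28 and -0.37, with overlapping ages and a difference of -0.25 ± 0.16 (log2, SE) that was -0.10 without 21-day-old replicate 3. Lig1, the ligase that seals Okazaki fragments, was at 6.78, 6.98 and 6.75 at 21 days, against 6.96, 7.14 and 7.27 at 9 days, a difference of -0.29 ± 0.11. Only 21-day-old replicate 2 reached the range of the younger cultures. The clamp loader subunits Rfc3, Rfc4 and Rfc5 differed by -0.17 ± 0.14, -0.17 ± 0.28 and -0.18 ± 0.14. Rfc4 had another profile than its partners, with its highest signal in the arrays numbered 1 (6.78 at 21 days and 6.95 at 9 days), where Rfc3 and Rfc5 were highest in those numbered 2. Rpa1 and Rpa2, which coat single-stranded DNA, differed by -0.23 ± 0.17 and -0.14 ± 0.15, and the flap nuclease gene Fen1 by -0.12 ± 0.24. Without 21-day-old replicate 3 the difference was -0.075 for Rpa1 and -0.061 for Rfc3. Without 9-day-old replicate 2 it was -0.010 for Rpa2, -0.070 for Rfc5 and 0.045 for Fen1, and Rfc4 was at 0.022 without 9-day-old replicate 1.

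Of the genes that restore chromatin behind the fork, Uhrf1 (probe set 10931457), which brings DNA methylation to the new strand, was at 6.38, 6.44 and 6.23 at 21 days, against 6.60, 6.79 and 6.74 at 9 days. The ages were parted, each pair was lower (-0.23, -0.35 and -0.51), and the difference was -0.36 ± 0.088 (log2, SE). Chaf1b, a subunit of the histone chaperone CAF-1, was at 5.94, 6.18 and 5.62 at 21 days, against 5.84, 6.58 and 6.005 at 9 days. The ages overlapped widely, and the difference of -0.22 ± 0.24 was -0.0054 without 9-day-old replicate 2.

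The members did not vary alike among the replicates. The 36 deviations from the age means correlated at 0.71, 0.66 and 0.73 between the arrays numbered 1, 2 and 3 of both ages, across genes that are not independent replicates. For 19 of the 36 members (52.8%) the array numbered 2 was the highest at both ages, against 17.7% of all genes, among them Mcm2, Mcm5, Mcm6, Mcm7, Pcna, Rfc3, Rfc5, Rpa1, Rpa2, Fen1, Cdc6 and Uhrf1. None of the 5 nucleotide supply genes showed this, and Tyms, Dut and Rfc4 were highest in the arrays numbered 1 at both ages. What the numbers stand for is not stated.

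Genes of mitosis and the spindle, a list of 32 measured genes, were all lower at 21 days and ordered the same arrays differently. Their mean was 7.16, 6.57 and 6.77 in 21-day-old replicates 1, 2 and 3, against 7.48, 6.98 and 7.27 in 9-day-old replicates 1, 2 and 3. Arrays numbered 2 were thus lowest for mitosis at both ages and highest for replication, and 25 of the 32 mitosis genes were highest in number 1 at both ages. In pair 1 the mitosis mean differed by -0.32, in pair 2 by -0.41 and in pair 3 by -0.50, each further below 0 than the replication mean in the same pair. There were 31 mitosis genes lower in all 3 pairs and 7 lower without overlap between the ages. With the replicate block 31 had an unadjusted p under 0.05 in limma. The median difference was -0.41 for the mitosis genes, with -0.62 ± 0.27 for Bub1b, a checkpoint kinase, and -0.57 ± 0.30 for Nusap1, which binds spindle microtubules (log2, SE). Because neither list was chosen blind to these data, no p is given for the gap between them.

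The list of E2F factors and cyclin E, upstream of many replication genes, also held Tfdp2, Cdk2, Cdc25a, Rb1 and Rbl2. Of 12 measured genes 8 were lower and 4 higher at 21 days. The median difference was -0.16, and the means per pair were 0.048, -0.30 and -0.091. Those higher were E2f3 (0.062 ± 0.087), Rb1 (0.015 ± 0.17), Rbl2 (0.14 ± 0.11) and Tfdp2 (0.28 ± 0.23). Those lower were E2f1, E2f5, E2f7, E2f8, Ccne1, Ccne2, Cdk2 and Cdc25a. E2f5, a repressor of the family, differed by -0.46 ± 0.15 and the cyclin gene Ccne1 by -0.29 ± 0.20 (log2, SE). No gene of either list passed the adjustment.

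**Figure D3:**
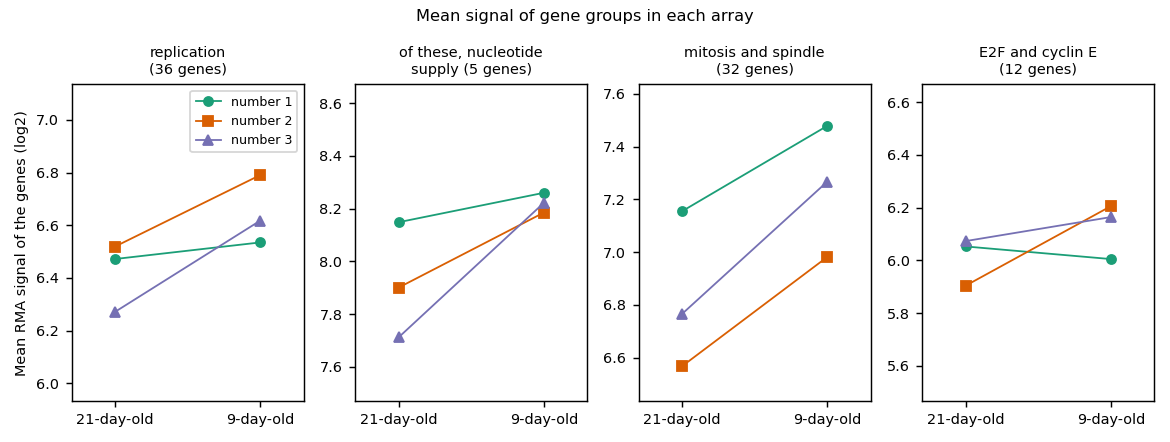
Mean RMA signal (log2, y axis, each panel spanning the same width) of the 36 replication genes, the 5 nucleotide supply genes among them, the 32 mitosis genes and the 12 E2F and cyclin E genes, with 21-day-old cultures left and 9-day-old cultures right. Each line joins the arrays of 1 number. The arrays numbered 2 are highest for replication, at 6.52 (21 days) and 6.79 (9 days), and lowest for mitosis, at 6.57 (21 days) and 6.98 (9 days).

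Other genes of the pathway, 54 measured of 72 listed from general knowledge, were also mostly lower but by less. Of the 54 genes 49 were lower at 21 days and 5 higher, 0 passed the adjustment, and the median difference was -0.099. The members and this list were not chosen blind to these data, so the gap between them was not tested. Without 21-day-old replicate 3 there were 37 of the 54 lower and the median was -0.064, and without both arrays numbered 3 there were 40 lower. At origins and the helicase 7 of 8 were lower, with -0.37 ± 0.15 (log2, SE) for Mcm8, a relative of the MCM subunits, and -0.24 ± 0.25 for Orc2, while the origin subunit gene Orc3 differed by 0.10 ± 0.13 and Gmnn, the inhibitor of Cdt1, by -0.036 ± 0.092. At the fork 14 of 16 were lower, with -0.42 ± 0.18 for the exonuclease gene Exo1 and -0.30 ± 0.16 for the fork protector gene Timeless. The 2 highest differences there were 0.15 ± 0.24 for the polymerase delta subunit gene Pold4 and 0.065 ± 0.24 for the RPA subunit gene Rpa3, both smaller than their SE. All 5 chromatin genes were lower, from -0.27 ± 0.071 for Dnmt1, the methyltransferase that Uhrf1 recruits, and -0.20 ± 0.19 for the histone chaperone gene Asf1b to -0.093 ± 0.093 for Rbbp7 and -0.062 ± 0.11 for Rbbp4.

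Enzymes of nucleotide metabolism beyond the members differed less, with the same limit from the choice of the lists. Among 9 other genes of deoxynucleotide supply 7 were lower, with -0.31 ± 0.32 (log2, SE) for Dctpp1, which breaks down modified dCTP, and -0.17 ± 0.094 for the deoxycytidine kinase gene Dck. Rrm2b, the reductase subunit used outside S phase, differed by 0.028 ± 0.16, against -0.23 for its S phase counterpart Rrm2, and the mitochondrial kinase gene Dguok by 0.018 ± 0.077. All 16 genes of new purine and pyrimidine synthesis were lower, with a median of -0.10. Pfas, an enzyme of purine synthesis, differed by -0.40 ± 0.12 and the CTP synthase gene Ctps2 by -0.29 ± 0.22, while Atic and Dhodh were level at -0.023 ± 0.20 and -0.0034 ± 0.14.

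Promoter sequences were examined for the E2F motif. Many replication genes are known to be driven by E2F factors, so a high share among genes chosen by function was likely in advance. RefSeq promoters of assembly GRCr8, from 250 bases before to 50 bases after the start that the promoter table uses, were found for 32 of the 36 members, and for all but Cdc6, Gins4, Orc1 and Rrm2. The letters searched on both strands were 6 forms of the E2F motif: TTTGGCGC, TTTCCCGC, TTTCGCGC, TTTGGCGG, TTTCCCGG and TTTCGCGG. A form and its neighbour on the other strand can overlap, and 5 such pairs were found. The motif was in 18 of 32 member promoters (56.2%), against 5.08% of the 11968 promoters of all genes tested and 7.35% of the 6125 among the genes of higher signal. It was in 31.9% of 47 promoters of the other replication genes and in 7.41% of 27 promoters of mitosis genes. The CCAAT box, searched on both strands, was in 59.4% of member promoters, 70.4% of mitosis promoters and 38.3% of those of all genes tested. The median GC content was 59.8% in members and 58% in all genes tested. A match describes the letters in this window and does not show that a factor binds there.

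**Figure D4:**
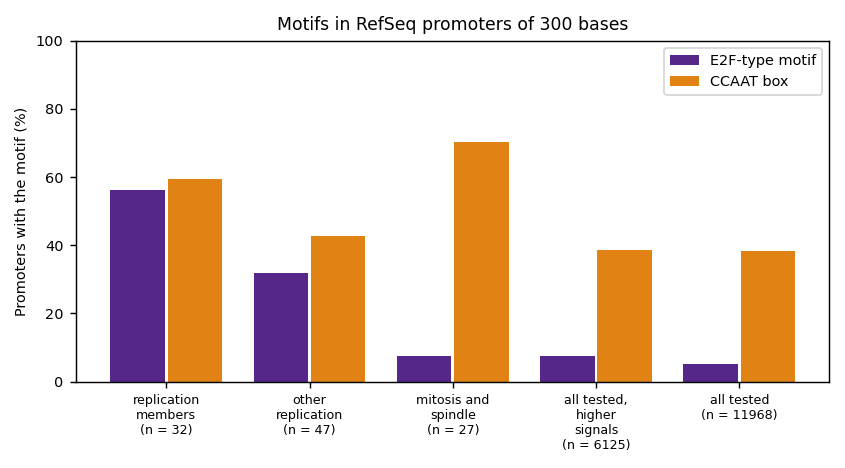
Share of RefSeq promoters (y axis, %) that hold an E2F-type motif (purple) or a CCAAT box (orange), for 32 replication members, 47 other replication genes, 27 mitosis genes, 6125 genes of higher signal and 11968 genes tested (x axis). The E2F-type bar is at 56.2% in the members and at 7.41% in the mitosis genes.

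Promoters are printed for Pola1, the gene chosen by the rule (lower in all pairs, no overlap between the ages, a motif present), and, chosen after their values were seen, for the members with the largest differences that hold a motif (Pole and Tyms) and for 3 in which a motif on 1 strand overlaps a motif on the other (Mcm2, Gins1 and Mcm5). They read 5′ to 3′ on the strand of the gene, in GRCr8, with the motif letters in capitals. Mcm6 also held an overlapping pair of motifs on opposite strands and is not printed.
Pole (chr12:52053613-52053912, minus strand): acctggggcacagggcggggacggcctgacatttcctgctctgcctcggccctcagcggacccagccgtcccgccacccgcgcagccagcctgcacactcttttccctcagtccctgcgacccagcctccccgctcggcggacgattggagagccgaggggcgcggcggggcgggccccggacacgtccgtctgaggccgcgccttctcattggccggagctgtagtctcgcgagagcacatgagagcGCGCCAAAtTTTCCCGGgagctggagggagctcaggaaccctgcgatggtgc
Tyms (chr9:120776034-120776333, minus strand): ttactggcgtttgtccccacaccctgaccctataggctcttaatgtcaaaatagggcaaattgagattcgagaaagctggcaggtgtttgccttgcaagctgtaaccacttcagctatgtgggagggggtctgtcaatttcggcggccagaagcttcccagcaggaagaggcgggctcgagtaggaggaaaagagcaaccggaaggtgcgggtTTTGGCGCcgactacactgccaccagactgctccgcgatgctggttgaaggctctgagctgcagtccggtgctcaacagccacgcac
Pola1 (chrX:62342306-62342605, minus strand): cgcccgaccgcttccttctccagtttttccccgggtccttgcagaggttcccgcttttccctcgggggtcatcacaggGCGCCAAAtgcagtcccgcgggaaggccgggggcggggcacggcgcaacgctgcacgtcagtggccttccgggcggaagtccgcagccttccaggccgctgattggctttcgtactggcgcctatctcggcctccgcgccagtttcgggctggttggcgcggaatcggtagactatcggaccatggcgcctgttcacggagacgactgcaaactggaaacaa
Mcm2 (chr4:122918045-122918344, minus strand): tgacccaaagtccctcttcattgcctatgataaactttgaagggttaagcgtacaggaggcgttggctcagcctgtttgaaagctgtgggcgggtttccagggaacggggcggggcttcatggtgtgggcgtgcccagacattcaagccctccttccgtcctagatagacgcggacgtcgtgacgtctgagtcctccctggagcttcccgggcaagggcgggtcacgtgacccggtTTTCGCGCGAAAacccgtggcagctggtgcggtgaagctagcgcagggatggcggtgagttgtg
Gins1 (chr3:160184670-160184969, plus strand): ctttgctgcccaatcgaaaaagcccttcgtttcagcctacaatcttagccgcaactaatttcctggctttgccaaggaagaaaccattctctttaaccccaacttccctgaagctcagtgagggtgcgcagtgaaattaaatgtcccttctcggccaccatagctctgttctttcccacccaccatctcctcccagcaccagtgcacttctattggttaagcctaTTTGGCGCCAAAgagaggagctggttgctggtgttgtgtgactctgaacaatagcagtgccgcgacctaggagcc
Mcm5 (chr19:13488563-13488862, plus strand): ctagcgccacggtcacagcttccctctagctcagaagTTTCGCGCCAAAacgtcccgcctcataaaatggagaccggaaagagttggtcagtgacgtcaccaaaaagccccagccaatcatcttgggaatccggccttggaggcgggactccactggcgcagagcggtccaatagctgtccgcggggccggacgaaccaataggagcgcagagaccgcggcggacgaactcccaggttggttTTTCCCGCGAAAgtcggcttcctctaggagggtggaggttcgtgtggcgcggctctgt

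In Pole the motifs stood at the gene start, and in Tyms 1 motif lay at positions -37 to -30 from it. The overlapping motifs of Mcm2 and Gins1 lay just before the start, and Mcm5 had 1 overlapping pair at the start and another far upstream. The single motif of Pola1 lay at positions -172 to -165 from the start. Of the 30 occurrences in the members 20 began no more than 60 bases before the start or after it, in 13 genes. The members with and without the motif differed between the ages by like amounts, with medians of -0.24 (18 genes) and -0.23 (14 genes). Pole and Tyms, with the largest differences (-0.48 and -0.43), held a motif, and Mcm5 with 4 occurrences had a difference near 0. Among the 5 members with ages that did not overlap, Pola1 held a motif in this window, and Prim1, Uhrf1, Rrm1 and Prim2 held none. Whether the motifs have a part in the difference between the ages was not tested.

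**Figure D5:**
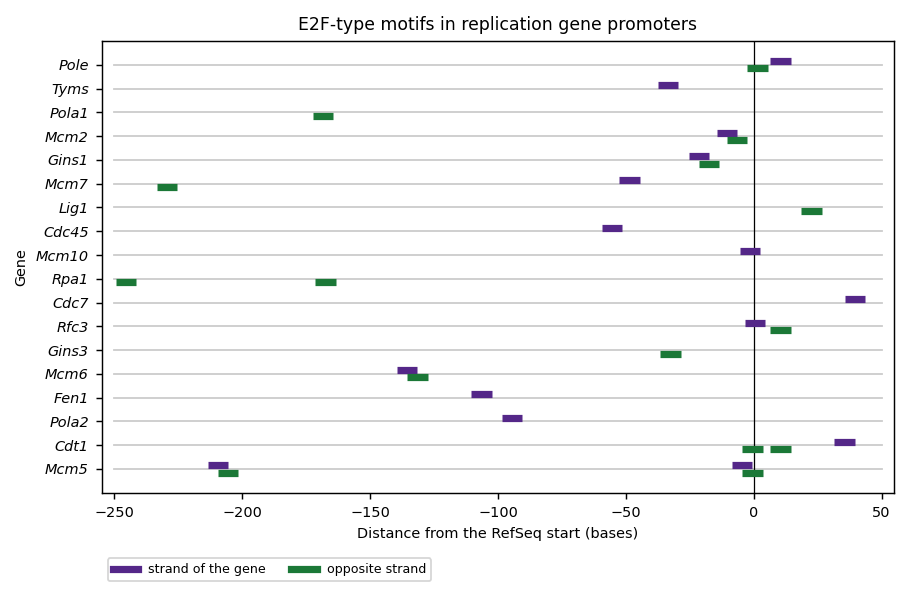
Position of the E2F-type motifs (bars) in the 18 member promoters that hold 1 or more, as the distance in bases from the RefSeq start (x axis), with genes ordered from the lowest difference between the ages at the top (y axis). Purple bars lie on the strand of the gene and green bars on the opposite strand. Most bars (20 of 30) begin within 60 bases before the start or after it.

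Markers of other testis cells were measured on the same arrays. In bulk samples fewer cells of a type and less RNA per cell cannot be told apart. Smooth muscle and peritubular cell markers averaged 7.76 to 9.64 at 21 days and 8.47 to 9.89 at 9 days, with 8 of 9 lower at 21 days, and were highest in the arrays numbered 3, at 9.64 (21 days) and 9.89 (9 days). Fibroblast markers averaged 8.41 to 8.81 at 21 days and 8.65 to 8.78 at 9 days, with 7 of 9 lower. The largest differences of that list went opposite ways, with 1.03 ± 0.40 for Thy1 and -0.73 ± 0.18 for Pdgfra (log2, SE). Germ cell markers averaged 3.14 to 3.48 at 21 days and 3.16 to 3.26 at 9 days, with 4 of 14 lower, and the defining germ cell gene Ddx4 was at 2.41 to 2.53 at 21 days and 2.46 to 2.47 at 9 days, below the array medians. Uchl1, a germ cell marker that other cells also make, was at 7.68 to 8.43 at 21 days and 8.02 to 8.22 at 9 days. Spermatid markers averaged 3.65 to 3.72 at 21 days and 3.70 to 3.73 at 9 days, and Leydig cell markers 4.16 to 4.33 at 21 days and 4.13 to 4.27 at 9 days. The Leydig cell mean hides Star, which was at 10.84 to 11.28 at 21 days and 10.84 to 11.16 at 9 days. The other Leydig cell markers were at 4.59 or lower. Macrophage markers averaged 3.39 to 3.42 at 21 days and 3.36 to 3.43 at 9 days, and endothelial markers 3.59 to 3.76 at 21 days and 3.47 to 3.74 at 9 days. Among the macrophage markers Cd14 was at 7.78 to 8.21 at 21 days and 7.38 to 8.07 at 9 days, and the others were at 4.09 or lower. The means of these 4 lists differed by less than 0.05 between the ages. The part of these cells in the lower replication signal was not tested.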

How the data were processed

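Total RNA of 6 samples of cultured cells was labelled with biotin by a whole-transcript kit and hybridised to Affymetrix arrays, per the labels' protocols. The deposited log2 values are RMA signals, normalized by the authors per the submitters' processing notes, with settings not stated. Scan dates, slides and detection calls were not used here, so batches could not be tested, and the number of arrays limits the precision (median SE 0.15 for the members).

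The table held 29214 probe sets. The platform annotation gave 15310 of them 1 gene, 323 several and 13581 none, and 0 symbols changed through the RefSeq table (GRCr8). The probe set with the highest mean was used for each of 14506 genes, and 34 members had only 1.

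Titles gave ages and replicate numbers. The ages were compared as 21 days minus 9 days in limma 3.58.1 (R 4.3.3; lmFit, eBayes) without covariates or a filter, tested on simulated data, with Benjamini-Hochberg adjustment over all genes and a threshold of 0.05. Deviations from the age means correlated across all genes at 0.44, 0.55 and 0.67 between arrays of the same number in the titles. Each was above the limit of 0.1, and the numbers were treated as pairs. Among unlike numbers, 21-day-old replicate 2 with 9-day-old replicate 1 was also above it, at 0.17, and the rest ran from -0.55 to 0.026. Alternatives were the replicate block, filtering, scaling, probe set means, variance models, array weights and leaving out arrays. Named genes were all members, the 2 lowest and 2 highest differences of each list of other pathway genes, and the 2 largest differences of each comparison list. All measured genes of the E2F and cyclin E list were also named, by direction. Python 3.11.15 with matplotlib 3.10.9 drew the figures. The members, lists and alternatives were chosen with earlier results of these data known.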

Additional observations from a re-analysis of the deposited data

How the results depend on the processing

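With 3 arrays at each age, a difference of the size seen here lies close to the spread between replicates, and RMA values without detection calls do not show which signals exceed background. The direction of the mean over the 36 members, -0.23 on the log2 scale, was the same under all 15 alternatives, from -0.28 without 9-day-old replicate 1 to -0.15 without 21-day-old replicate 3. No member passed in limma under any of them. The replicate block and the change of variance model could not alter a mean difference in this balanced design, so they do not bear on its direction. The filter by mean signal left the differences of the 35 members it kept unchanged. With all genes kept, the replicate block again called 0 genes. Among only the 7253 genes of highest mean, limma called 0 genes without the replicate block (lowest adjusted p 0.146) and 5 with it (lowest adjusted p 0.0173), all higher at 21 days and none a member: Stmn2, Gpx3, Gsta4, Hpx and Hsd11b1, named because they were so few. The median of the helicase activation genes, -0.25, ranged from -0.35 to -0.13 when single arrays were left out, with -0.13 without 21-day-old replicate 3. The median of the nucleotide supply genes, -0.29, was -0.13 without both arrays numbered 3. The sign turned for 6 members, whose lowest differences with 1 array left out were -0.24 (Cdt1), -0.30 (Mcm5), -0.24 (Pold1), -0.41 (Rfc4), -0.32 (Fen1) and -0.23 (Pola2). Without 9-day-old replicate 2 the difference was 0.085 for Mcm5, 0.055 for Pold1, 0.045 for Fen1, 0.039 for Cdt1 and 0.0087 for Pola2. Without 21-day-old replicate 3 it was 0.067 for Cdt1 and 0.030 for Fen1. Without both arrays numbered 3 it was 0.023 for Mcm5 and 0.016 for Fen1. Rfc4 was at 0.022 without 9-day-old replicate 1, and Pold1 at 0.015 without 21-day-old replicate 1. The causes were not tested beyond the arrays left out.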
